A study of Canis lupus familiaris with 7 samples.

Results

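Serum amyloid A and complement are secreted proteins of innate immunity. The genes described here are *SAA1*, the complement genes *C1R*, *C1S*, *C3*, *CFB*, *CFD*, *CFI* and *SERPING1*, and *CLU*. These 9 symbols were searched in an RNAseq table of 24580 dog genes, and 8 of them were found, in 9 rows, because *SAA1* named 2 rows. No row carried the symbol *CFB* (factor B, which supplies the protease of the alternative pathway convertase), so it was not analysed here. Bone of dogs was sampled at amputation or just after euthanasia. The 4 non-tumor samples (N1, N3, N8 and N9) were grossly non malignant bone next to a tumor, and the 3 OSA tumor samples (T1, T3 and T10) were osteosarcoma diagnosed by histopathology. Breed, sex and age of these dogs are not in the labels, and neither is a statement that the 7 samples came from 7 dogs, so p-values measure the spread between these samples alone. In bulk tissue, fewer cells of a type and less RNA per cell cannot be told apart.

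Complement is a cascade of proteases that marks surfaces for uptake and for lysis. In the classical pathway C1q binds a target and activates the proteases C1r and C1s, which SERPING1 (C1 inhibitor) blocks. The lectin pathway starts from collectins and MASP proteases, and the alternative pathway from C3 itself with factor B and factor D (*CFD*, also called adipsin because fat cells secrete it). All routes cleave C3, the central component, and factor I (*CFI*) destroys its active fragment. Clusterin (*CLU*) is an extracellular chaperone that also keeps the terminal complement complex from inserting into membranes. Serum amyloid A is an acute-phase protein, made mostly by the liver under interleukin signals, and also by inflamed or malignant tissue.

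Values are FPKM, in which fragments are divided by transcript length and by a measure of library size, so levels of different genes can be compared. That measure need not be the plain mapped total. Scaling factors from the median ratio of genes between samples were nearly equal in all 7 samples. The FPKM sums ran from 539648 (N1) to 1752340 (N8). The values thus already lay on a nearly common median-ratio scale. From 11995 to 12624 genes reached 1 FPKM in a sample. The number of fragments behind 1 FPKM, read from the steps between the lowest values, ran from 0.544 (N8) to 1.44 (T10) relative to N1. The tissue markers differed between samples of a group as well as between groups. Over 6 skeletal muscle markers the summed FPKM ran from 45.9 (N1) to 67077 (N8) in non-tumor samples and from 1.999 to 8.997 in OSA tumor. Over 8 erythroid markers it was 7.28 in N1 against 181.8 to 5038 in the other non-tumor samples and 3.41 to 78.6 in OSA tumor. The bone markers were weak in N8, where *IBSP* was at 3.35, *DMP1* at 0.479 and *SP7* at 0.0833 FPKM, whereas N1, at 488, 18.4 and 99.4 FPKM, lay at or above T10 in *IBSP* and *SP7*. N1 was therefore the lowest non-tumor sample in the muscle and erythroid sums. As a list, the bone markers did not set it apart from N3. The sum of 8 osteoblast markers was 1540 in N1 and 1273 in N3, and *DMP1* was higher in N3 (40.9 FPKM). Values without 1 sample are given where leaving it out changed the call of a gene described here.

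Tumor was compared with non-tumor tissue by limma on log2(FPKM + 1), over the 13507 genes that averaged 1 FPKM or more. A gene was called if it changed 2-fold or more and its p before adjustment was below 0.05. The study's methods set these limits for another test, that of Cuffdiff. Calls here can therefore differ from those of the study, whose list of genes higher in osteosarcoma includes *SAA1*. Of the 9 rows, 8 were tested, 1 for each symbol found. By limma, 0 of the 8 passed, 0 had an unadjusted p under 0.05, and 0 had an adjusted p under 0.05, against 926 genes (6.86%) called among all genes tested, 443 higher and 483 lower in OSA tumor. With all samples brought to 1 common FPKM sum, 775 genes were called, 276 higher and 499 lower, and the median log2 fold change of all genes went from -0.02 to 0.12. That scaling depends on single features, since 1 feature held 47.3% of the sum in T1 and at most 15.2% in any other sample. The members' median was -0.31, with 3 above 0 and 5 below. Tumor and non-tumor values overlapped in all 8, where 5.85% of all genes tested had groups that did not overlap. The smallest adjusted p of the members was 0.693, which is also the smallest of all genes.

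**Figure D1:**
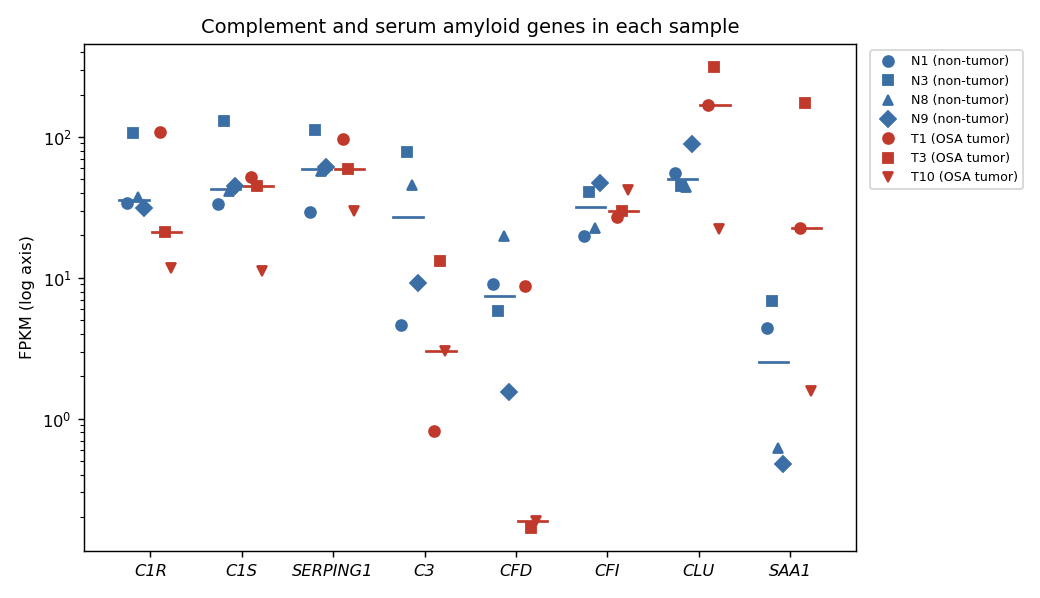
FPKM of the 8 tested genes in each of 7 samples, on a log axis, with blue for non-tumor and red for OSA tumor; a symbol marks a sample and a short line marks the median of a group. The groups overlap in every gene, and the spread is widest in the tumor values of *SAA1*, from 1.58 to 175 FPKM.

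The initiating proteases of the classical pathway were well expressed in both tissues. *C1R* (ENSCAFG00000014220, chromosome 27 from 37951311 to 37960918, CanFam3.1) was at 34.2 (N1), 106 (N3), 37.3 (N8) and 31.6 (N9) FPKM, and in tumor tissue at 109 (T1), 21.3 (T3) and 11.7 (T10). T1 and N3 were high together, and T10 was the lowest of all samples. The means were 52.3 ± 36.0 FPKM (SD, n = 4) in non-tumor bone and 47.3 ± 53.5 FPKM (SD, n = 3) in tumors. The limma log2 fold change was -0.56 ± 0.78 (standard error, with a 95% confidence interval of -2.31 to 1.18), smaller than the spread within the groups, and without T10 it was 0.09.

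*C1S* (ENSCAFG00000014346, chromosome 27 from 37976132 to 37985995) begins 15214 bases past the end of *C1R*, and *C1RL*, another gene of this protease family, ends 1645 bases before *C1R*. *C1S* was at 33.4 (N1), 129.8 (N3), 41.4 (N8) and 44.7 (N9) FPKM, and in tumor tissue at 52.2 (T1), 45.0 (T3) and 11.2 (T10). N3 was again the highest non-tumor sample and T10 the lowest of the 7. Tumor minus non-tumor, the log2 fold change was -0.81 ± 0.68 (standard error, with a 95% confidence interval of -2.35 to 0.73), and it kept its sign with each sample left out, from -1.20 without T1 to -0.14 without T10. *C1RL* was lower in level, from 0.926 FPKM in N9 to 5.89 in N3, with a log2 fold change of 0.37.

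*SERPING1* (ENSCAFG00000007838, chromosome 18 from 38570607 to 38580831), the inhibitor of both proteases, was at 29.4 (N1), 111 (N3), 57.5 (N8) and 61.3 (N9) FPKM, and in tumor tissue at 96.8 (T1), 59.6 (T3) and 29.9 (T10). The highest and the lowest values of the groups were nearly alike. The means were 64.9 ± 34.1 FPKM (SD, n = 4) in non-tumor bone and 62.1 ± 33.5 FPKM (SD, n = 3) in tumors. The fitted log2 fold change was -0.06 (95% confidence interval from -1.42 to 1.29), with no stable sign, since it was 0.13 with FPKM rescaled to the same sum and 0.05 with quantile normalization.

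Within a sample, the balance of these genes depends little on scaling between libraries. The log2 ratio of *C1R* to *C1S*, taken as a difference of log2(FPKM + 1), lay between -0.49 and 0.03 in the non-tumor samples, where the FPKM of *C1R* was 0.706 to 1.02 times that of *C1S*. The tumor samples stood at 1.05 (T1), -1.04 (T3) and 0.06 (T10), and the FPKM of *C1R* was 2.08 times that of *C1S* in T1 and 0.475 times in T3. The spread was an SD of 1.04 in OSA tumor and 0.221 in non-tumor samples, and the means did not separate (difference 0.24, two-sided exact permutation test, p = 0.629). Without T1 this difference was -0.27, and without T3 it was 0.78. The log2 ratio of *SERPING1* to *C1S* was -0.18 (N1), -0.22 (N3), 0.47 (N8) and 0.45 (N9), and in tumor tissue 0.88 (T1), 0.40 (T3) and 1.34 (T10). The tumor mean was higher by 0.74, with T3 inside the non-tumor range (p = 0.143 by the same exact permutation test). The smallest p that 4 against 3 samples allow is 0.0571, so none of these tests could reach 0.05.

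**Figure D2:**
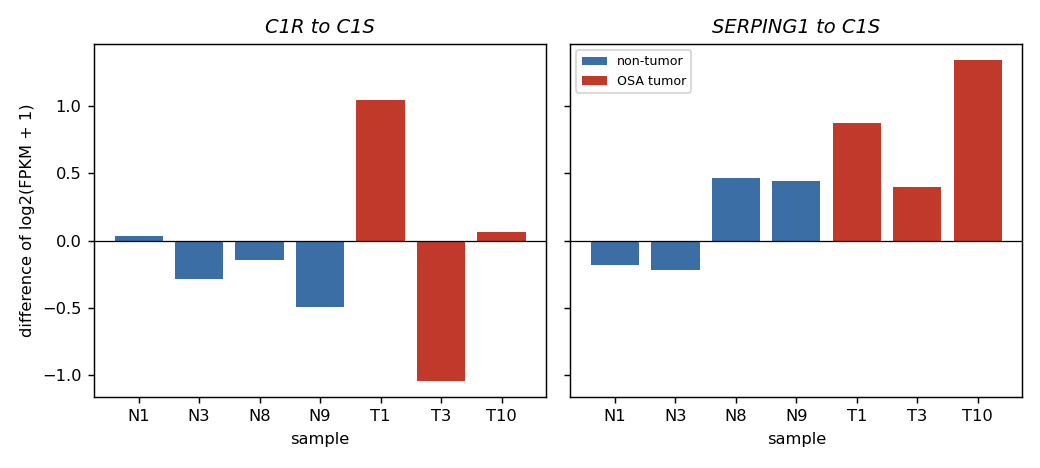
Difference of log2(FPKM + 1) between *C1R* and *C1S* (left) and between *SERPING1* and *C1S* (right), 1 bar per sample, blue for non-tumor and red for OSA tumor. The left ratio runs from -1.04 in T3 to 1.05 in T1, outside the non-tumor range on either side. The right ratio is above 0 in all 3 tumor samples and also in N8 and N9.

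*C3* (ENSCAFG00000018625, chromosome 20 from 53565857 to 53599372) was at 4.62 (N1), 78.0 (N3), 45.3 (N8) and 9.17 (N9) FPKM, and in tumor tissue at 0.823 (T1), 13.1 (T3) and 3.02 (T10). N3 and N8 were well above the other samples, while T3 lay above N1 and N9. Mean levels were 34.3 ± 34.4 FPKM (SD, n = 4) in non-tumor bone and 5.65 ± 6.55 FPKM (SD, n = 3) in tumors. The limma log2 fold change was -2.19 ± 1.02 (standard error, with a 95% confidence interval of -4.48 to 0.10, and p = 0.0590 from limma, unadjusted), and an exact permutation test gave p = 0.171. *C3* did not pass with all samples, but among the unpaired fits it did without N1 (-2.83), without N9 (-2.55) and without T3 (-2.98), with a pseudocount of 0.1 (-2.56) and with sample weights (-2.73).

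The samples highest in *C3*, N3 and N8, were also the highest in granulocyte and in erythroid genes. The summed FPKM of 7 neutrophil markers was 336 (N1), 25614 (N3), 22081 (N8) and 876 (N9), and in tumor tissue 11.2 (T1), 404 (T3) and 554 (T10). Of these markers 5 of 7 were called lower in OSA tumor, where 3.58% of all genes tested were. *MPO* was at 588 FPKM in N3 and 518 in N8 but at most 2.57 in OSA tumor. Its tumor mean was below the filter, which it reached through its non-tumor values alone, so that count supports nothing. The sum of 8 erythroid markers was 2966 in N3 and 5038 in N8, and at most 181.8 in the other samples. The part of these cells in the difference in *C3* was not tested. By the mean absolute difference of centred log2 values over the 7 samples, the genes with the pattern most like *C3* were *RAB37* (0.438), *SLC14A1* (0.469) and *RBP7* (0.471).

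*CFD* (ENSCAFG00000028817, chromosome 20 from 57783153 to 57786954) was at 9.02 (N1), 5.78 (N3), 19.8 (N8) and 1.56 (N9) FPKM, and in tumor tissue at 8.75 (T1), 0.168 (T3) and 0.188 (T10). T1 alone of the tumor samples carried the gene at a level like that of non-tumor bone, and it held 96.1% of the tumor sum. The means were 9.03 ± 7.79 FPKM (SD, n = 4) in non-tumor bone and 3.03 ± 4.95 FPKM (SD, n = 3) in tumors. The fitted log2 fold change was -1.70 ± 0.93 (standard error, with a 95% confidence interval of -3.79 to 0.38, and p = 0.0983 from limma, unadjusted, and 0.171 from the exact permutation test). *CFD* passed without T1 (-2.72), without N9 (-2.24) and with sample weights (-2.32). With a pseudocount of 0.1 the value was -2.88, which did not pass.

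*CFD* is a gene of fat cells, and its level is given beside that of 5 adipocyte markers. *PLIN1*, which coats the fat droplet, was at 1.28 to 19.6 FPKM in non-tumor and 0.179 to 0.500 in OSA tumor tissue, highest in N8 and, among tumors, in T1, as was *CFD*. *LEP* (1.88 FPKM) was also highest in N8. *CIDEC* (14.9 FPKM), *PLIN4* (86.6) and *LPL* (173.6) were highest in N9, where *CFD* was the lowest of the non-tumor samples. Among tumors *PLIN4* was highest in T1, *CIDEC* in T3 and *LPL* and *LEP* in T10. The summed FPKM was 29.3 to 281 in non-tumor bone and 9.89 to 44.6 in tumors. The 4 tested were called lower, but *PLIN1*, *CIDEC* and *PLIN4* reached the filter through their non-tumor values alone, so that count supports nothing. The part of fat cells in the difference in *CFD* was not tested.

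**Figure D3:**
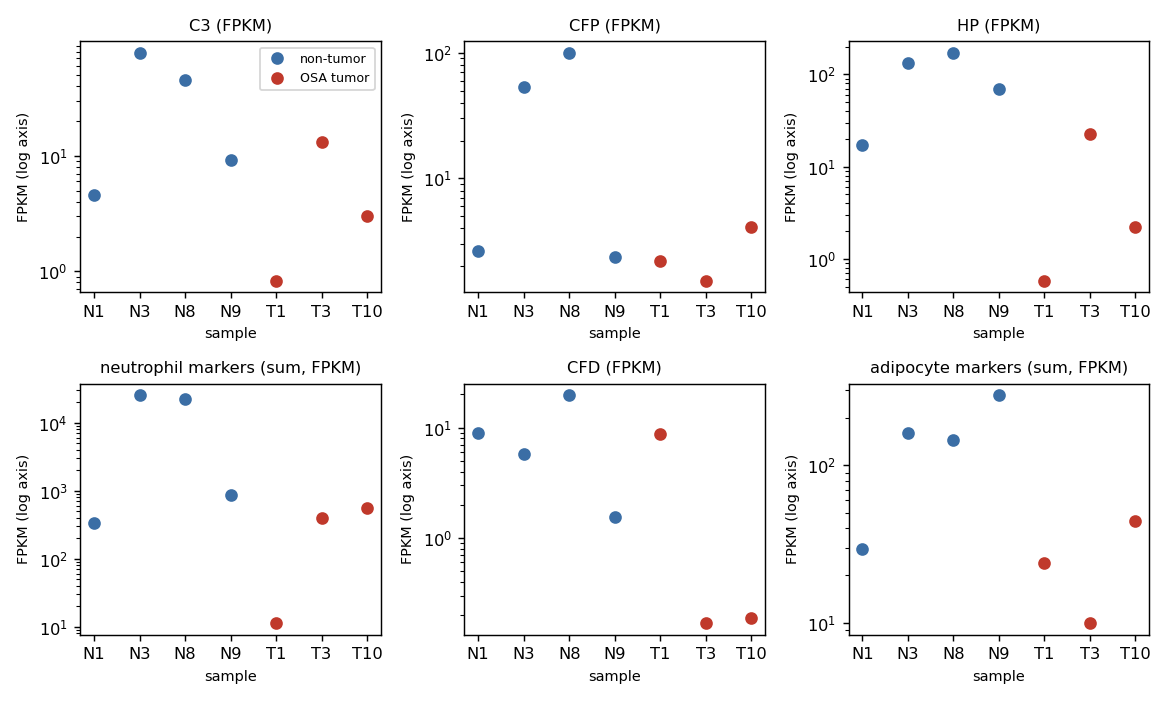
FPKM of *C3*, *CFP*, *HP* and *CFD*, and the summed FPKM of 7 neutrophil and 5 adipocyte markers, 1 point per sample on log axes, blue for non-tumor and red for OSA tumor. *C3*, *CFP*, *HP* and the neutrophil sum have their highest values in N3 and N8, whereas *CFD* is highest in N8 (19.8 FPKM) and the adipocyte sum in N9 (281 FPKM).

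*CFI* (ENSCAFG00000011462, chromosome 32 from 29916298 to 29986135) varied least of the 8. It was at 19.9 (N1), 40.8 (N3), 22.6 (N8) and 47.5 (N9) FPKM, and in tumor tissue at 26.9 (T1), 29.9 (T3) and 41.9 (T10). All 3 tumor values lay inside the non-tumor range, and the means were 32.7 ± 13.6 FPKM (SD, n = 4) and 32.9 ± 7.94 FPKM (SD, n = 3). The log2 fold change of 0.07 had a 95% confidence interval from -1.02 to 1.17, so a difference of 2-fold in either direction lies inside it. The interval of *CFI* covers a U6 RNA gene listed at 0 in all samples.

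*CLU* (ENSCAFG00000008404, chromosome 25 from 29982187 to 29999565) had the highest mean of the 8 over all samples. In non-tumor bone the means of *SERPING1* (64.9 FPKM) and *C1S* (62.3 FPKM) were higher. *CLU* was at 55.2 (N1), 45.2 (N3), 44.5 (N8) and 89.8 (N9) FPKM, and in tumor tissue at 169.7 (T1), 314 (T3) and 22.1 (T10). T1 and T3 were above all non-tumor samples and T10 was below all of them. The means were 58.7 ± 21.3 FPKM (SD, n = 4) in non-tumor bone and 169 ± 146 FPKM (SD, n = 3) in tumors, with 62.1% of the tumor sum in T3. Tumor minus non-tumor, the log2 fold change was 0.91 ± 0.83 (standard error, with a 95% confidence interval of -0.96 to 2.78, and p = 0.302 from limma, unadjusted, and 0.429 from the exact permutation test), and the gene passed without T10 (2.02), while without T3 the value was 0.13.

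With all 7 samples, the largest log2 fold change of the members was that of *SAA1*, and its high tumor values were in T1 and T3. *C3* had the larger one with sample weights (-2.73 against 2.62), without N9 (-2.55 against 2.43) and without T3 (-2.98 against 1.30). The tested row (ENSCAFG00000009135, chromosome 21 from 40663392 to 40704729) was at 4.42 (N1), 6.81 (N3), 0.623 (N8) and 0.480 (N9) FPKM, and in tumor tissue at 22.5 (T1), 175 (T3) and 1.58 (T10). T3 was 25.8 times the highest non-tumor sample and held 87.9% of the tumor sum, while T10 lay among the non-tumor values. In T3 *SAA1* ranked 514th of 24580 genes and in T1 3283rd, and in the other 5 samples between 7844th and 13163rd.

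The means of *SAA1* were 3.08 ± 3.08 FPKM (SD, n = 4) in non-tumor bone and 66.5 ± 94.9 FPKM (SD, n = 3) in tumors. The log2 fold change was 2.80 ± 1.26 (standard error, with a 95% confidence interval of -0.05 to 5.64, and p = 0.0533 from limma, unadjusted), and an exact permutation test gave p = 0.143. Among the unpaired fits it passed without T10 (4.34), with FPKM rescaled to the same sum (2.74) and with quantile normalization (2.86), and without T3 it was 1.30. The genes with the most similar pattern over the 7 samples were *FZD2* (mean absolute difference of centred log2 values 0.602), *MATN4* (0.613) and *MSX2* (0.691).

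**Figure D4:**
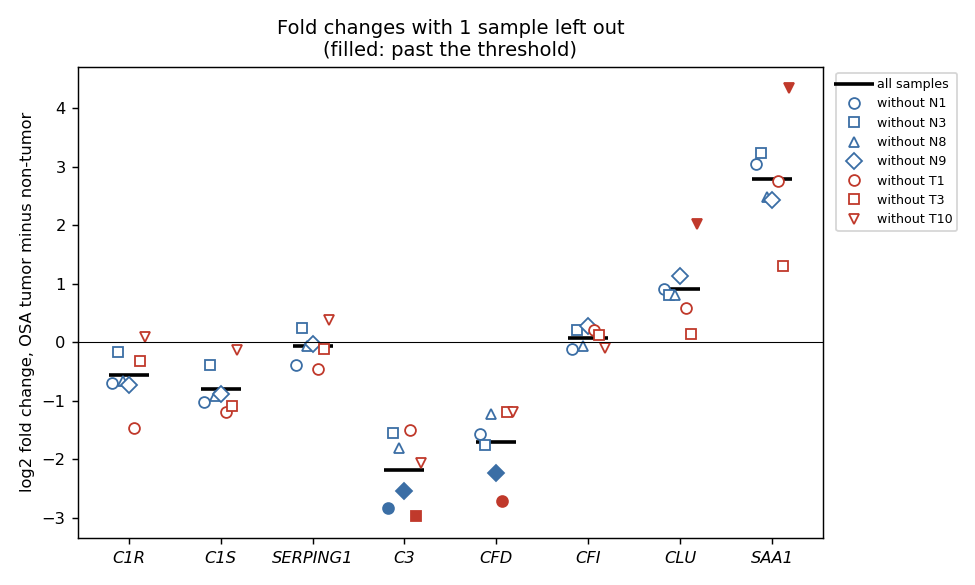
Log2 fold change of each member with all 7 samples (black bar) and with 1 sample left out (symbols, blue for a non-tumor and red for a tumor sample, filled where the gene passed the threshold). *SAA1* and *CLU* passed without T10, *C3* without N1, N9 or T3, and *CFD* without N9 or T1.

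The dog genome holds near-identical serum amyloid genes side by side, so reads may be split between rows and the values are uncertain. RefSeq (assembly UU_Cfam_GSD_1.0) lists 3 genes with the symbol *SAA1* or the synonym SAA. The second *SAA1* row (ENSCAFG00000015205, chromosome 21 from 40647281 to 40650792) fell under the filter, at 0.681 FPKM in N1, 0.103 in N3, 0.437 in T1 and 0.669 in T3, and was listed at 0 in N8, N9 and T10. An unnamed gene (ENSCAFG00000015206) shares the interval of the tested row. It was looked up for that reason, after the values of *SAA1* were seen, and was at 0.862 FPKM in N1, 23.6 in T1, 10.5 in T3 and 0.326 in T10, and listed at 0 in N3, N8 and N9. It reached the filter through its tumor values alone, so no test is given for it, and its highest sample was T1, not T3.

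Several genes that the liver makes, some of them in the acute phase, were near 0 in the same tissue, whereas others (*HP*, *SERPINA1*, *CP*) were not. Of 9 hepatocyte markers, 7 were below 1 FPKM in all samples, and *ALB* (albumin) was at most 0.148 FPKM. *CRP* (C-reactive protein) reached 0.0756 FPKM, the fibrinogen chain *FGB* was listed at 0 in all 7 samples, and of the other chains *FGA* reached 0.0445 FPKM and *FGG* 1.03 FPKM, in N9. *SERPINA3*, a protease inhibitor of the acute phase, was at 3.96 FPKM in T3 and at most 0.0788 in the other samples. T3 was thus the highest sample in *SERPINA3*, *SAA1* and *CLU*, but not in most other acute-phase genes. *HP* was highest in N8, *SERPINA1*, *CP* and *LCN2* in N3, and *PTX3* in T10. *LBP* was highest in T1, at 14.2 FPKM against 0.245 in T3.

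In order of the mean log2 value over the 7 samples, the members ran *CLU*, *SERPING1*, *C1S*, *C1R*, *CFI*, *C3*, *SAA1*, *CFD*. None of the 7 pairs of neighbours in that order differed beyond its spread (two-sided exact sign-flip permutation tests within samples, p from 0.0625 to 0.672, adjusted over the 7 pairs from 0.273 to 0.672). These pairs were neighbours by the same values, over both groups together, so they were likely to differ least. The tests therefore do not show that the members are alike in level. The order changed from sample to sample. *CLU* was first in N1, N9, T1 and T3, *C1S* in N3, *SERPING1* in N8 and *CFI* in T10, where the 7 other members were at 29.9 FPKM or less.

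Of 90 further symbols of complement and the acute phase, 70 had a row and 46 were tested. By limma 2 were called higher and 3 lower, with 3.28% and 3.58% of all genes tested called in these directions. The 3 include *C7*, which reached the filter through its non-tumor values alone, so their count is a description. The median log2 fold change of the 46 was -0.19 against -0.02 for all genes. By list, the median was -0.66 for the classical and lectin pathways, -0.33 for complement receptors, 0.04 for regulators, -0.58 for acute-phase proteins, 0.10 for their inducers and -0.28 for the receptors of serum amyloid and clusterin. Benjamini-Hochberg adjusted p-values from limma were at least 0.693 for all 46.

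Of the other classical and lectin genes, 6 were tested and 1 was called higher. This was *COLEC12*, a membrane collectin that acts as a scavenger receptor, at 49.6 (N1), 9.79 (N3), 3.94 (N8) and 10.3 (N9) FPKM, and in tumor tissue at 68.7 (T1), 23.1 (T3) and 103 (T10). On the log2 scale the difference was 2.08 ± 0.82 (standard error, p = 0.0308 from limma, unadjusted, and 0.0857 from the exact permutation test). N1 lay within the tumor range, and the call was lost without any 1 of N3 (1.98), N8 (1.61), N9 (2.002), T1 (1.92) and T10 (1.63). The 3 chains of C1q, which macrophages make, were each highest in N3 and N8. *C1QA* was at 278 FPKM in N3 and 287 in N8 but at 31.4 in N1 and 11.0 in N9, against 31.6 to 39.3 in OSA tumor, with a log2 fold change of -1.08 for *C1QA*, -0.97 for *C1QB* and -0.93 for *C1QC*. None of these passed with all samples, and all 3 were called lower without N9 (-1.96, -1.92 and -1.89). The summed FPKM of 6 macrophage markers was 179 (N1), 241 (N3), 141 (N8) and 34.1 (N9), and in tumor tissue 479.9 (T1), 103 (T3) and 78.5 (T10). *CD68*, whose interval covers 17 genes, made up 399.8 of the sum in T1. *CD163* (71.1 FPKM in N3, 39.3 in N8, at most 11.2 elsewhere) and *AIF1* (29.7 in N3, 17.1 in N8, at most 9.06 elsewhere) were highest in the same samples as C1q, whereas *CSF1R* was highest in T1 (60.8), *MSR1* in T10 (36.3) and *MARCO* in T3 (17.6), and the part of macrophages was not tested.

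In the alternative pathway *CFP* (properdin, which stabilizes the convertase and is stored by neutrophils) was the 1 other gene tested. It was at 2.67 (N1), 53.2 (N3), 99.8 (N8) and 2.38 (N9) FPKM, and in tumor tissue at 2.20 (T1), 1.53 (T3) and 4.13 (T10). N3 and N8 were again apart from the other 5 samples. The log2 fold change of -2.22 did not pass (standard error 1.19, p = 0.0944 from limma, unadjusted, and 0.286 from the exact permutation test), but it did without N1 (-2.93), without N9 (-2.97) and with sample weights (-3.20).

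Of the 7 terminal pathway genes, *C7*, which anchors the lytic complex in the membrane, was the 1 tested, and it was called lower in OSA tumor. *C7* (ENSCAFG00000018608, chromosome 4 from 68450496 to 68502831) was at 3.03 (N1), 13.6 (N3), 4.399 (N8) and 21.3 (N9) FPKM, and in tumor tissue at 0.274 (T1), 0.912 (T3) and 0.115 (T10). No tumor value reached the lowest non-tumor value. The gene reached the filter of 1 FPKM through its non-tumor values alone (tumor mean 0.434 FPKM), so its call is given as a description. Tumor minus non-tumor, the log2 fold change was -2.72 ± 0.68 (standard error), and from -4.21 to -2.29 over the 14 alternatives. No p-value is given for it. The other terminal components were below the filter. *C6* was at 0.0895 (N1), 2.29 (N3), 0.369 (N8) and 0.681 (N9) FPKM, at 0.126 in T3, and listed at 0 in T1 and T10, while *C5* was at most 0.175 and *C8A* was listed at 0 in all samples.

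Of the 7 complement receptors tested, 0 passed by limma and 0 had an unadjusted p under 0.05. *ITGB2* and *ITGAM*, the chains of complement receptor type 3, were highest in N3 (66.3 and 46.0 FPKM) and N8 (57.3 and 21.5 FPKM), with log2 fold changes of -1.56 and -1.33. *ITGB2* was called lower without N9 (-2.26) and with sample weights (-2.39). *VSIG4*, a macrophage receptor of C3 fragments, was at 57.6 FPKM in N3, 48.5 in N8 and 32.9 in T10, and its log2 fold change was -0.10. The interval of *ITGB2* covers 4 genes.

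Of 4 other regulators tested, *CD55*, which speeds the decay of C3 convertases, was called higher in OSA tumor. It was at 14.5 (N1), 24.8 (N3), 6.61 (N8) and 5.63 (N9) FPKM, and in tumor tissue at 40.6 (T1), 17.1 (T3) and 42.3 (T10), so T3 lay below N3. The fitted log2 fold change was 1.42 ± 0.61 (standard error, p = 0.0441 from limma, unadjusted, and 0.114 from the exact permutation test). Among the unpaired fits the call was lost with FPKM rescaled to the same sum (1.58) and without N8 (1.21), N9 (1.14), T1 (1.23) or T10 (1.20). *CD59*, which blocks the terminal complex, ran from 9.69 to 62.3 FPKM across non-tumor samples and from 17.1 to 84.6 in OSA tumor. Log2 fold changes were 0.14 for *CD59*, -0.06 for *VTN* and -0.32 for *C4BPB*.

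Of the 7 other acute-phase genes tested, haptoglobin was called lower. *HP*, which binds free hemoglobin, was at 17.0 (N1), 132 (N3), 172 (N8) and 68.8 (N9) FPKM, and in tumor tissue at 0.576 (T1), 22.4 (T3) and 2.24 (T10). T3 lay above N1, and the others did not overlap. The log2 fold change was -3.90 ± 1.03 (standard error, p = 0.00400 from limma, unadjusted, and 0.0857 from the exact permutation test), and the call held in all 14 alternatives, from -5.02 to -3.07. N3 and N8 were highest in *HP* as in the neutrophil markers, and the part of those cells was not tested. *PTX3*, a pentraxin made outside the liver, ran from 5.93 to 159 FPKM across non-tumor samples and from 47.4 to 205 in OSA tumor, and its log2 fold change of 1.25 did not pass. Those of *SERPINA1* (0.13) and *CP* (-1.39) did not pass either.

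Of 13 genes of the interleukin signals that induce acute-phase proteins, *IL6R*, the interleukin 6 receptor, was called lower. It was at 3.001 (N1), 13.6 (N3), 9.63 (N8) and 10.9 (N9) FPKM, and in tumor tissue at 1.33 (T1), 0.769 (T3) and 2.23 (T10). The highest tumor value, in T10, was below the lowest non-tumor value, in N1. The fitted log2 fold change was -1.97 ± 0.57 (standard error, p = 0.00689 from limma, unadjusted; exact permutation p = 0.0571, two-sided), and the call held in all 14 alternatives. The interval of *IL6R* covers 3 genes. The partner chain *IL6ST* was at 0.72, *STAT3* at 0.04 and *RELA* at -0.59 on the log2 fold change scale, and none of these passed. The receptors of serum amyloid and clusterin gave 0 calls among 7 tested by limma, with 0 at an unadjusted p under 0.05, and log2 fold changes of -1.70 for *CD36*, -0.82 for *SCARB1* and 0.47 for *TLR2*. *CD36*, a scavenger receptor that fat cells also carry, was called lower without N1 (-2.43).

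**Figure D5:**
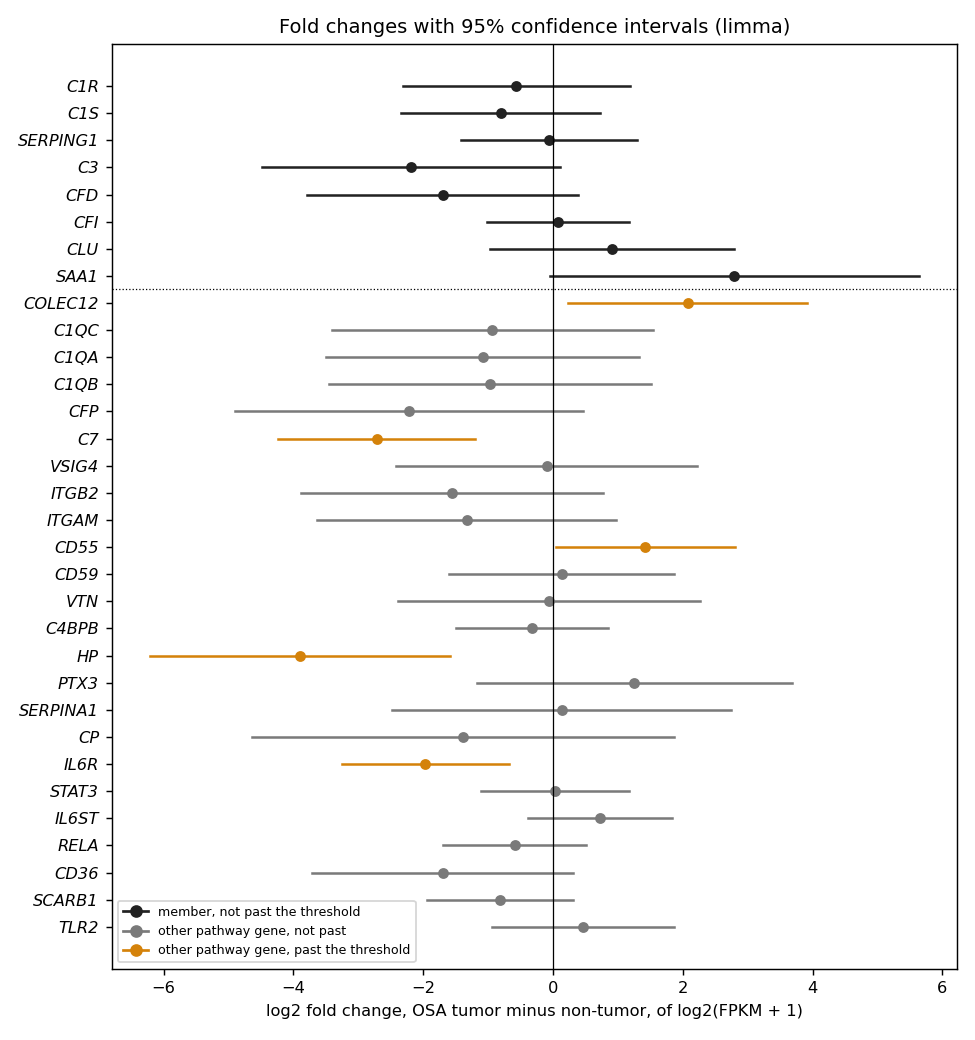
Log2 fold change of OSA tumor against non-tumor samples with its 95% confidence interval from limma, for the 8 members (above the dotted line, black) and 24 other complement and acute-phase genes (grey, or orange where past the threshold). The intervals of all 8 members include 0, and the 5 orange genes are *COLEC12*, *C7*, *CD55*, *HP* and *IL6R*.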

How the data were processed

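RNA from 4 non-tumor bone and 3 OSA tumor samples was sequenced on an Illumina HiSeq platform from stranded paired-end libraries. After trimming (Trim Galore) and alignment by Tophat2 to the CanFam3.1 genome (Ensembl iGenomes annotation), the authors computed the deposited FPKM per gene and sample with Cufflinks/Cuffdiff. Tool versions, the method of scaling between libraries and the use of strand are not given in the sources used here. The values themselves lay on a nearly common median-ratio scale. A second table holds the authors' own comparison (group FPKM, log2 fold changes, test statistics, p-values, q-values), of which only the gene intervals were used, with 1 added to each start. Counts were not analysed, so the mapped depth of each sample is unknown, though the study gives an approximate read number. An exact 0 is given as listed.

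All 7 per-sample columns entered the fit and 0 were left unused. Values were taken as log2(FPKM + 1), which understates the change of low genes, and 11073 genes averaging below 1 FPKM were left out. limma 3.58.1 in R 4.3.3 compared the groups (eBayes, trend over mean level), with Benjamini-Hochberg adjusted p-values over all genes tested. The fit was tested on simulated data. Exact permutation tests used all 35 arrangements of the group labels in Python 3.11.15 with numpy 2.4.6; scipy 1.17.1 adjusted p-values and matplotlib 3.10.9 drew the figures. Alternatives were a pseudocount of 0.1, no filter, 3 other scalings, sample weights, the sample number as a block, and each sample left out with the genes tested held fixed.

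The members and the gene lists were chosen with earlier results of these data known. Named were all members, each pathway gene past the threshold, up to 3 others per list with the highest mean FPKM, and 3 genes with the pattern most like *SAA1*, *C3* and *C1S*; for *C1S* these were *FNBP1*, *TAOK3* and *ITGBL1*. Other genes were chosen after their values were seen. Markers of hepatocyte, adipocyte, macrophage, neutrophil, osteoblast, fibroblast, skeletal muscle, chondrocyte and erythroid cells were summed per sample.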

Additional observations from a re-analysis of the deposited data

Results flagged for a closer look

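Among the 4 non-tumor samples, the highest value of *C1R*, 106 FPKM in N3, stood apart from the others by Dixon's test on the log2 scale, with a gap of 0.863 of the whole range (above the critical value for 4 samples). This was 1 of 32 genes checked, and chance flags about 1 in 20 groups.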

How the results depend on the processing

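With 14 alternatives, the number of called genes among all tested was 1857 with sample weights and ran from 319 to 1997 with 1 sample left out, lowest without N8 and highest without N1. The number of members called was 0 with all samples. It was 1 with a pseudocount of 0.1 (*C3*), 1 with FPKM rescaled to the same sum and 1 with quantile normalization (both *SAA1*), 2 with sample weights (*C3* and *CFD*), and 0 to 2 with 1 sample left out. The 5 calls among the other pathway genes became 8 with sample weights and 3 to 8 with 1 sample left out. *SERPING1* changed sign with FPKM rescaled to the same sum (0.13), with quantile normalization (0.053) and with the block (0.080), and ran from -0.46 to 0.37 with 1 sample left out. Over the same fits *CFI* ran from -0.13 to 0.28, *C1R* from -1.47 to 0.089, and the difference in the *C1R* to *C1S* log2 ratio from -0.27 to 0.78. *C1S*, *HP* and *IL6R* kept their sign and their side of the threshold in all 14. So did *C7*, whose call is a description only, since it reached the filter through its non-tumor values alone. The cause of these changes was not tested.

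Numbers 1 and 3 occur in both groups. The protocol calls the adjacent bone matched to the tumors, but no source says that a shared number marks 1 dog, so whether the samples are paired is unknown. Deviations from the group means correlated at 0.42 for N1 and T1 and at 0.21 for N3 and T3. With the sample number as a replicate block (random effect, 7 samples), 2 members were called, *SAA1* (2.91) and *C3* (-2.15), and 1062 genes in all, while *CD55* (1.09) lost its call. Depth limits the low values most in N8, where 1 FPKM stands for the fewest fragments.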

Other observations

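The summed FPKM of the other marker lists, with those of the macrophage list again, were as follows. Over 8 osteoblast markers the sum was 115 to 1540.3 in non-tumor samples and 965 to 3622 in OSA tumor, over 9 fibroblast markers 378 to 1203 against 775 to 7476, and over 6 chondrocyte markers 9.31 to 82.5 against 120.3 to 606. Over 6 macrophage markers it was 34.1 (N9) to 241 (N3) in non-tumor samples and 78.5 (T10) to 480 (T1) in OSA tumor, of which *CD68* held 399.8 in T1 and 77.7 in N3, and 0 of the 6 were called by limma, with 0 at an unadjusted p under 0.05. Over 9 hepatocyte symbols it was 12.8 to 47.1 against 18.7 to 25.0, most of it from *TF* and *APOA1*, and 0 of 3 tested rows were called, also with 0 at an unadjusted p under 0.05.

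In the samples that share a number, *SAA1* was at 22.5 FPKM in T1 and 4.42 in N1, and at 175 in T3 and 6.81 in N3. *CLU* was higher in T1 than in N1 and in T3 than in N3 (log2 differences 1.60 and 2.77), and *C3* was lower (-1.62 and -2.49). *C1R* was higher in T1 than in N1 (1.64) and lower in T3 than in N3 (-2.26).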
